A study of Homo sapiens with 9 samples.

Results

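The collagen genes of the human colorectal cancer cell line RKO were examined in parental cells and in clones in which the gene DIP2C had been targeted. Members were taken by symbol alone, as every gene named COL, a number, A and a number, and no measured value entered that choice. This gave 44 of the 23619 gene symbols in the table. A member counted as on with at least 10 counts in at least 1 of the 9 samples, which held for 43 of the 44. The 1 member that was off was COL8A1, whose highest value was 7.8 counts, in 1 of the parental samples. Just inside that limit was COL26A1, with 10.1 counts in clone F6-A7 and under 10 in the other 8 samples.

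Collagens are extracellular matrix proteins in which 3 alpha chains, each encoded by its own gene, wind around each other into a triple helix. Fibrillar collagens build the tensile fibres of connective tissue, type IV collagens the network of basement membranes, type VI collagen the beaded microfilaments around cells, and FACIT collagens (types such as IX and XII) decorate fibrils. Transmembrane collagens such as XIII and XVII are anchored in the plasma membrane, and multiplexins such as XVIII sit in basement membranes and release fragments such as endostatin. In the gut most collagen is made by fibroblasts, while epithelial cells contribute basement membrane and cell surface types.

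The 9 samples were 2 of parental RKO (RKOparental-1 and RKOparental-2), 2 DIP2C-/- clones (E3 and C10) and 5 DIP2C+/- clones (named A6-C9, A9-A12, F6-A7, G1-A5 and H9-A4). The clones had been made by placing a deletion in exon 9 of DIP2C with a recombinant adeno-associated virus vector, followed by Geneticin selection, growth from single cells and removal of the selection cassette by Cre. In DIP2C+/- clones 1 allele was targeted. The DIP2C-/- clones had a further round of targeting in a common DIP2C+/- parent clone, so they are not independent of each other. No agent was applied for the experiment, and all cells were grown for 48 h before RNA was taken. Each sample is 1 library, and each clone descends from 1 cell. No clone that had passed through targeting with DIP2C intact is among the samples, so effects of DIP2C and of cloning or selection cannot be told apart. The p-values below measure the spread between these samples only. In bulk RNA, a lower level in every cell and a smaller share of cells with RNA of a gene cannot be told apart either.

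The targeted gene was read first in every sample. Levels are given as CPM, counts per 1e6 of a library's total after TMM normalisation, which evens out differences in composition between libraries. DIP2C was at 60.98 and 70.9 CPM in parental RKO, at 17.4 and 22.8 CPM in the DIP2C-/- clones E3 and C10, and at 47.0 (F6-A7), 38.9 (A9-A12), 41.7 (G1-A5), 33.7 (A6-C9) and 56.3 (H9-A4) CPM in the DIP2C+/- clones. All 7 clones lay below both parental samples, and the library labelled H9-A4 lay nearest to them. Counts cover the whole gene, so transcripts that carry the deletion are counted too. H9-A4 stood apart from the other DIP2C+/- clones over all genes. The chi-square per degree of freedom, about 1 for sampling noise alone, was 100 to 118 in pairs with H9-A4 and 21.5 to 55.1 in the other pairs. The fitted results for the collagen genes below are therefore given with all 9 samples and again without H9-A4. This choice was made after seeing the data. Where H9-A4 lay apart from the other clones, the smaller SE and adjusted p without it follow in part from the choice. Leaving H9-A4 out lowered the biological coefficient of variation, the spread between samples of a group beyond counting, from 0.298 to 0.242.

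The totals were 14772593 to 21486483 counts per sample, and 3 counts, taken as the smallest level that can be told from 0, corresponded to 0.14 to 0.203 CPM. Of the markers of the labelled cell type, KRT18 (121 to 293 CPM), KRT8 (7.02 to 21.5 CPM) and CDX2 (15.6 to 19.8 CPM) were present. The epithelial markers CDH1 (0.313 to 0.698 CPM), KRT20 (0.0537 to 0.415 CPM) and KRT19 (0 to 0.227 CPM) were near that limit in every sample, and EPCAM reached 3.79 CPM in H9-A4 and at most 1.05 CPM elsewhere.

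Promoter sequences are shown for 6 genes that the results turn on and that have an entry in the promoter table, 2 that were lower in most clones (COL13A1, COL18A1), 1 whose clones lay on both sides of the parental level (COL27A1) and 3 that stood high in a pair of clones (COL5A3, COL9A1, COL4A1), with COL4A2 as the partner of the last. Each is the stretch of 100 bases just before the annotated start, written 5′ to 3′ on the gene's own strand, from RefSeq on GRCh38.p14, with CpG dinucleotides in capitals. CpG is the site of DNA methylation in human cells. Methylation is not in the files used here.
COL13A1, chr10:69801806-69801905, plus strand: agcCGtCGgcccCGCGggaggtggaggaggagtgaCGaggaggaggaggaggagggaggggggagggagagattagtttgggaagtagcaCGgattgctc
COL18A1, upstream start, chr21:45405065-45405164, plus strand: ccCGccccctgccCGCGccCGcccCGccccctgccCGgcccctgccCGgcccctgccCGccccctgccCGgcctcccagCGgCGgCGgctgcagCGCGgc
COL18A1, downstream start, chr21:45455422-45455521, plus strand: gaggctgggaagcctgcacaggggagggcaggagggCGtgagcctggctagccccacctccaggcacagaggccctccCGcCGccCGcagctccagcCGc
COL27A1, chr9:114155437-114155536, plus strand: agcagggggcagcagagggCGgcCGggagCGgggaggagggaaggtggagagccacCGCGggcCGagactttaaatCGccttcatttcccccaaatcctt
COL5A3, chr19:10010505-10010604, minus strand: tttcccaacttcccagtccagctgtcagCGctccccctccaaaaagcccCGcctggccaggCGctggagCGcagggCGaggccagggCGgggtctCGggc
COL9A1, downstream start, chr6:70283198-70283297, minus strand: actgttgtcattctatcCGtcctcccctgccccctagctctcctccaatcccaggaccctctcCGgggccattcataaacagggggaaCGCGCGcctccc
COL9A1, upstream start, chr6:70303085-70303184, minus strand: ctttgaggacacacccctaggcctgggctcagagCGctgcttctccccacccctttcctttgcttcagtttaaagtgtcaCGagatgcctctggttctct
COL4A1, chr13:110307158-110307257, minus strand: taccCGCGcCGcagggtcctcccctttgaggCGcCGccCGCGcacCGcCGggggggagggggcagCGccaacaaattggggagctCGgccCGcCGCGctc
COL4A2, chr13:110307184-110307283, plus strand: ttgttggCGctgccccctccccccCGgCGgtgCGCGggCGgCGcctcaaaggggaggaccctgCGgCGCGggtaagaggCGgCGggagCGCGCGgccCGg

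In the 250 bases before the start, the promoters of COL4A1 and COL4A2 held 38 and 40 CpG, and only 3.3% and 2.2% of the 35116 promoters in the table held as many. These genes lie head to head, so their windows overlap in part and are read on opposite strands. COL18A1 had 37 CpG before its upstream start and 9 before its downstream start. COL13A1 had 16, COL27A1 13, COL5A3 10 and COL9A1 12 and 2 before its respective starts, against a median of 11 over all promoters. The letters GGGCGG, the core bound by SP1-type factors, were searched on both strands of the same 250 bases. They were present for COL18A1 (both starts), COL27A1, COL5A3, COL4A1 and COL4A2 and not for COL13A1 and COL9A1, against 42.6% of all promoters. The letters TATAAA were found for COL13A1 and at the downstream start of COL18A1, against 10.7% of all promoters. Of the 44 members, 32 had an entry in the promoter table. COL6A1 had none.

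Collagen RNA was a small share of these transcriptomes, and COL27A1 and COL6A1 held the largest shares of it on average. In E3 and F6-A7 COL5A3 (514.3 and 816.6 counts) was above COL6A1 (406.9 and 411.3 counts). All 44 members together reached 253 and 263 CPM in parental RKO, 216 (E3) and 167 (C10) CPM in DIP2C-/- clones, and 235 (F6-A7), 184 (A9-A12), 150 (G1-A5), 164 (A6-C9) and 251 (H9-A4) CPM in DIP2C+/- clones. All 7 clones lay below both parental samples, H9-A4 only just. This did not hold for the family without COL27A1 and COL6A1. That sum was 91.2 and 77.4 CPM in parental RKO, 122 CPM in E3, 139.8 CPM in F6-A7 and 87.0 CPM in H9-A4. In the remaining clones it was 42.1 to 67.5 CPM. COL27A1 and COL6A1 together supplied 40.5% to 71.8% of all collagen counts in a sample. On average over the samples 9 members reached at least 2 CPM, 4 reached at least 10 CPM, and 35 stayed under 2 CPM. Per kilobase of the canonical transcript, the highest parental levels were those of COL6A1 (21.7 CPM per kb), COL27A1 (10.6), COL18A1 (3.64), COL5A3 (2.22), COL9A3 (2.05) and COL13A1 (1.25). The chains of type I collagen, the main collagen of connective tissue, were at 1.87 and 2.87 CPM (COL1A1) and at 0.606 and 1.15 CPM (COL1A2) in parental RKO.

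**Figure D1:**
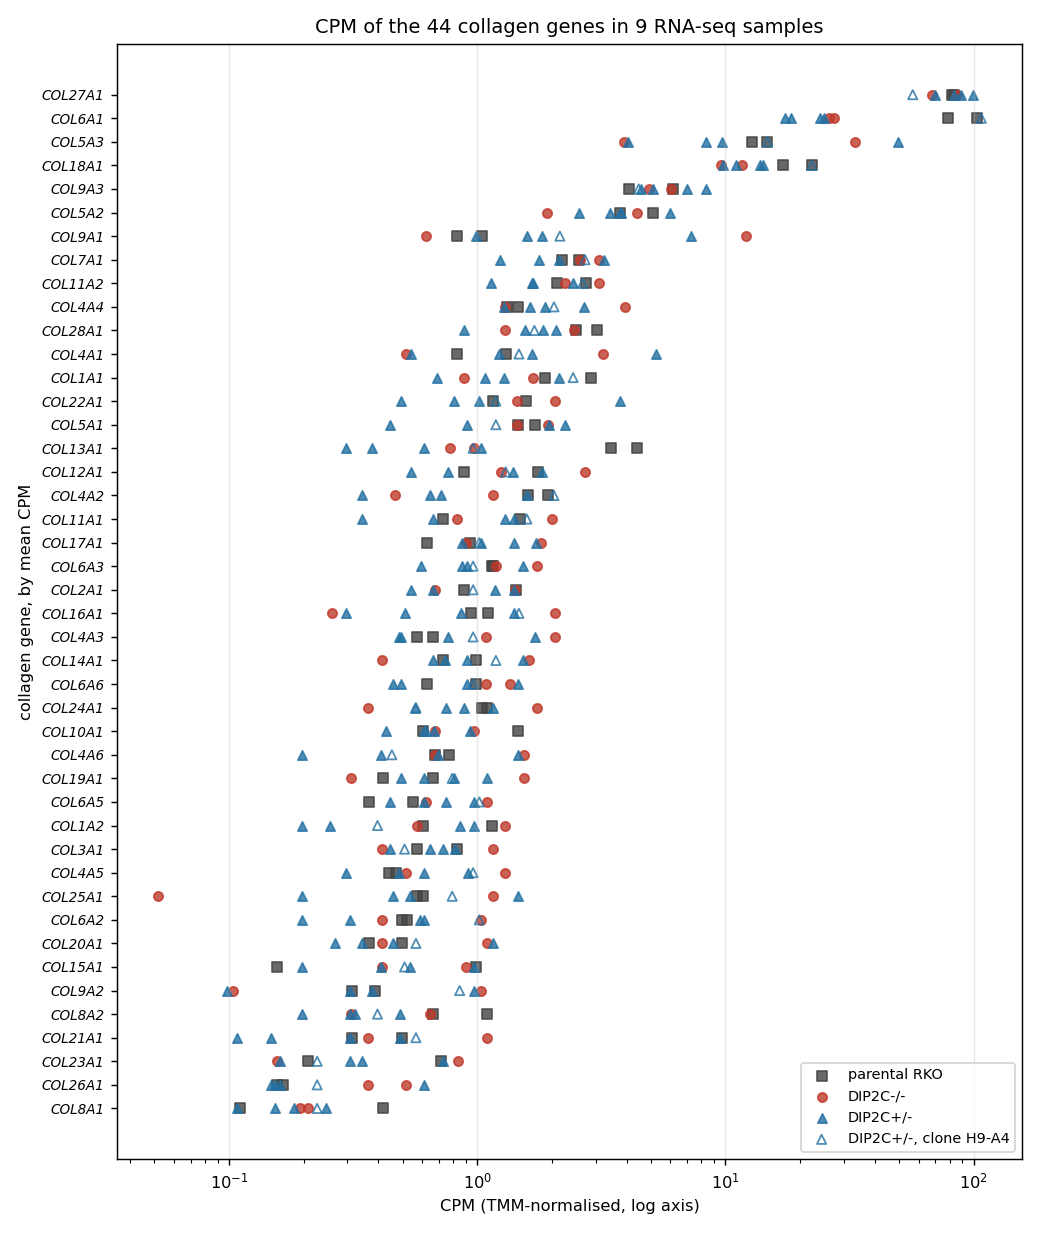
CPM of the 44 collagen genes (rows, ordered by mean) in each of the 9 samples on a log axis; squares are parental RKO, circles DIP2C-/- clones, triangles DIP2C+/- clones, and the open triangle clone H9-A4. COL27A1, COL6A1, COL5A3 and COL18A1 average over 10 CPM, and most other members lie between 0.1 and 5 CPM with the groups overlapping.

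**Figure D2:**
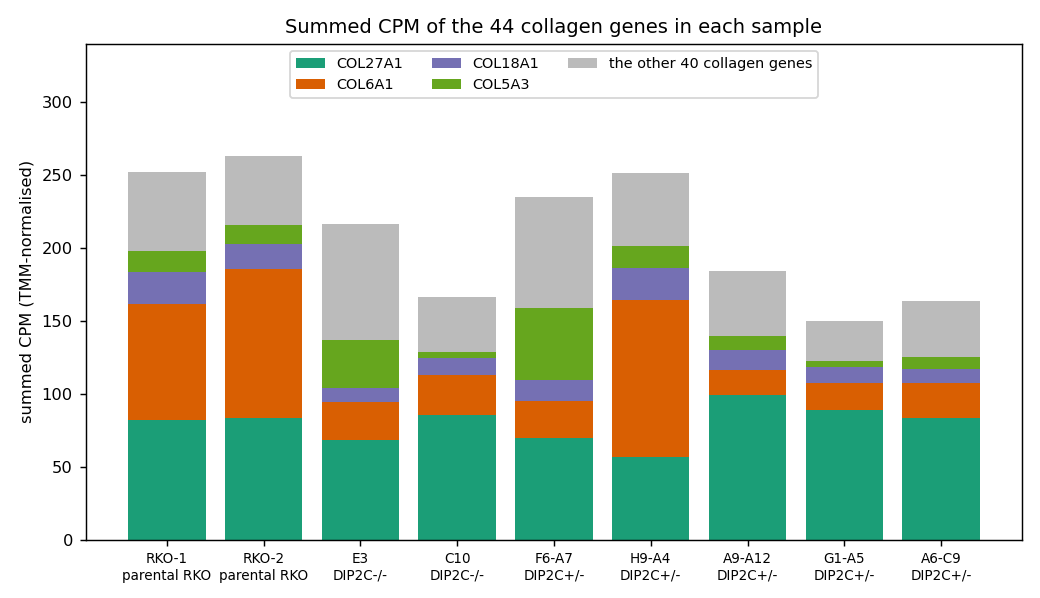
Summed CPM of the 44 collagen genes in each sample, with COL27A1, COL6A1, COL18A1, COL5A3 and the other 40 genes stacked. The sums run from 150 to 263 CPM, and the COL6A1 segment is largest in the parental samples and H9-A4.

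COL6A1, the alpha 1 chain of type VI collagen, was lower in 6 of the 7 clones. It was at 79.2 and 103 CPM in parental RKO, at 26.3 (E3) and 27.4 (C10) CPM in DIP2C-/- clones, and at 25.0 (F6-A7), 17.4 (A9-A12), 18.3 (G1-A5), 24.1 (A6-C9) and 107 (H9-A4) CPM in DIP2C+/- clones. The 6 clones other than H9-A4 formed a narrow band of 17.4 to 27.4 CPM, far below both parental samples, whereas H9-A4 lay above them. COL6A1 lies at chr21:47401684-47424964 in GRCh37, the build of the files. With all 9 samples the log2 fold change of all knockout clones against parental RKO was -1.39 ± 0.56 (SE; edgeR quasi-likelihood test, Benjamini-Hochberg adjusted p = 0.332). Without H9-A4 it was -1.99 ± 0.16 (edgeR, adjusted p = 3.21e-05), a 3.97-fold lower level. For DIP2C-/- clones the corresponding values were -1.76 ± 0.78 (adjusted p = 0.386) and, without H9-A4, -1.76 ± 0.22 (adjusted p = 0.00131). For DIP2C+/- clones they were -1.24 ± 0.60 (adjusted p = 0.456) and -2.10 ± 0.18 (adjusted p = 5.75e-05). The call for COL6A1 therefore rests on the 1 library H9-A4 being left out, also for the DIP2C-/- clones, since all samples share 1 estimate of the spread. DIP2C+/- clones minus DIP2C-/- clones gave 0.52 with all 9 samples and -0.34 without H9-A4, and neither passed the test (edgeR, adjusted p = 0.941 and 0.733).

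The other type VI chains did not follow COL6A1. COL6A2, the alpha 2 chain that assembles with it and lies 93.1 kb downstream, was at 0.496 and 0.522 CPM in parental RKO and between 0.197 (G1-A5) and 1.03 (E3) CPM in the clones. COL6A3, the long alpha 3 chain, was at 1.16 and 1.15 CPM in parental RKO and between 0.591 (G1-A5) and 1.74 (E3) CPM in the clones. In neither gene were parental and knockout samples separated. Per kilobase the alpha 1 chain thus exceeded its partners in every sample, at 4.14 to 25.5 CPM per kb against at most 0.30 for COL6A2 and 0.165 for COL6A3. The remaining members of the family, COL6A5 and COL6A6, ranged from 0.366 to 1.10 CPM and from 0.46 to 1.46 CPM.

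COL13A1, the transmembrane collagen XIII found at cell adhesion sites, was lower in 7 of 7 clones, including H9-A4. Its level was 4.41 and 3.45 CPM in parental RKO, 0.968 (E3) and 0.777 (C10) CPM in DIP2C-/- clones, and 1.04 (F6-A7), 0.376 (A9-A12), 0.296 (G1-A5), 0.613 (A6-C9) and 0.963 (H9-A4) CPM in DIP2C+/- clones. No clone came near the parental range, and the lowest clones, G1-A5 and A9-A12, held 6.0 and 7.1 counts. The gene lies at chr10:71561636-71724031 in GRCh37. All knockout clones against parental RKO gave a log2 fold change of -2.46 ± 0.44, a 5.5-fold lower level, which missed the threshold with all 9 samples (edgeR, adjusted p = 0.0822) and passed it without H9-A4 at -2.56 ± 0.46 (edgeR, adjusted p = 0.00558). In DIP2C+/- clones it was -2.58 ± 0.48 (edgeR, adjusted p = 0.131) and -2.76 ± 0.51 without H9-A4 (edgeR, adjusted p = 0.00793). In DIP2C-/- clones it was -2.17 ± 0.64 (edgeR, adjusted p = 0.318) and the same size without H9-A4 (edgeR, adjusted p = 0.0816). The DESeq2 Wald test on all 9 samples called COL13A1 in all 3 contrasts with parental RKO (adjusted p = 0.0321, 0.000153 and 9.14e-05 for DIP2C-/-, DIP2C+/- and all clones).

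The other transmembrane collagens were low and not separated between the groups. COL17A1, a component of hemidesmosomes, was at 0.936 and 0.627 CPM in parental RKO and between 0.868 and 1.81 CPM in the clones. COL23A1 and COL25A1 ranged from 0.156 to 0.839 CPM and from 0.0518 to 1.46 CPM over all samples.

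COL18A1, the multiplexin whose end is released as endostatin, was lower in 6 of 7 clones by a smaller factor. It stood at 22.3 and 17.1 CPM in parental RKO, at 9.61 (E3) and 11.7 (C10) CPM in DIP2C-/- clones, and at 14.2 (F6-A7), 13.7 (A9-A12), 11.0 (G1-A5), 9.80 (A6-C9) and 22.3 (H9-A4) CPM in DIP2C+/- clones. H9-A4 equalled the higher parental sample, and the other 6 clones lay below both. All clones against parental RKO gave -0.59 ± 0.28 on the log2 scale with all 9 samples (edgeR, adjusted p = 0.393) and -0.76 ± 0.21 without H9-A4 (edgeR, adjusted p = 0.0443). Neither genotype alone passed the test without H9-A4, at -0.88 ± 0.26 for DIP2C-/- (edgeR, adjusted p = 0.0913) and -0.69 ± 0.22 for DIP2C+/- (edgeR, adjusted p = 0.0872). COL18A1 lies at chr21:46825080-46933634 in GRCh37, 468 kb from COL6A1. It overlaps 3 genes on the opposite strand, among them SLC19A1, and whether the counting used strand is not given in the sources used here, so reads from a shared stretch could be assigned to either. The other multiplexin, COL15A1, was at 0.992 and 0.157 CPM in the 2 parental samples, a gap as wide as the range of 0.197 to 0.975 CPM in the clones.

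COL27A1, a fibrillar collagen chain of cartilage, was the member with the highest mean CPM over the 9 samples, although COL6A1 was above it in RKOparental-2 and H9-A4, and its clones lay around the parental level. Parental RKO held 82.1 and 83.2 CPM, DIP2C-/- clones 68.2 (E3) and 85.5 (C10) CPM, and DIP2C+/- clones 70.1 (F6-A7), 99.2 (A9-A12), 89.3 (G1-A5), 83.3 (A6-C9) and 56.9 (H9-A4) CPM. Clones lay on both sides of the parental pair. The log2 fold change of all clones was -0.07 ± 0.19 with all 9 samples (edgeR, adjusted p = 0.919) and 0.00 ± 0.15 without H9-A4 (edgeR, adjusted p = 0.996). The ratio of COL6A1 to COL27A1 CPM was 0.964 and 1.24 in parental RKO and 1.89 in H9-A4. In the other 6 clones it was 0.175 to 0.385, so these samples did not overlap with the rest.

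**Figure D3:**
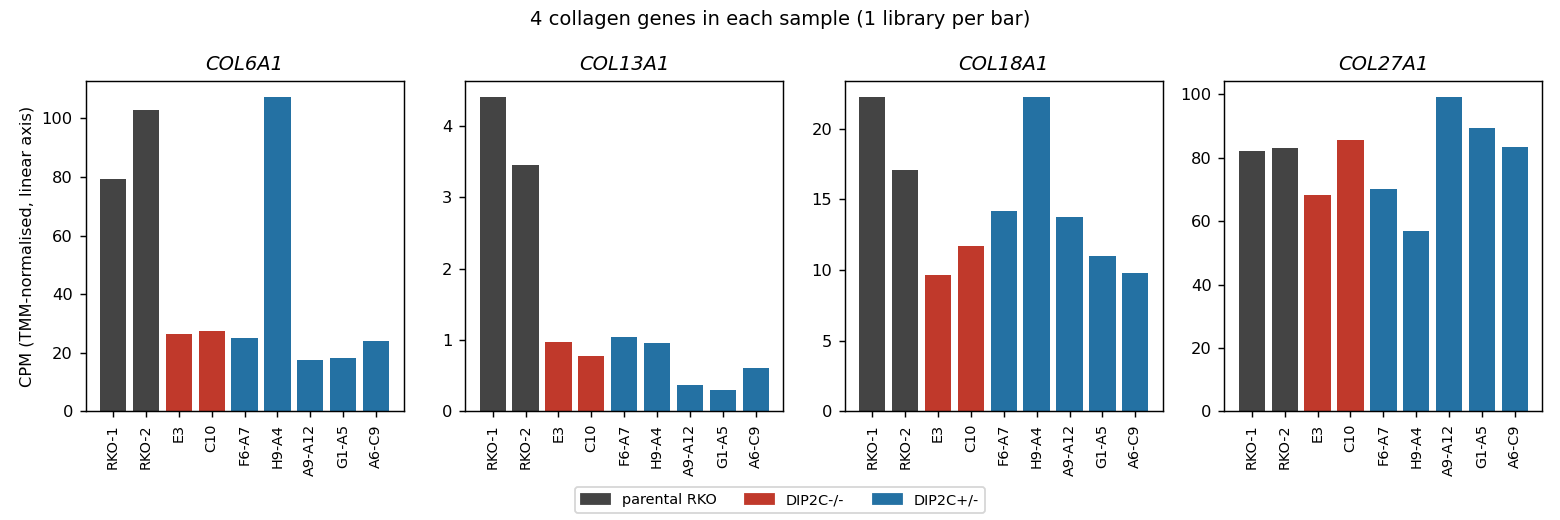
CPM of COL6A1, COL13A1, COL18A1 and COL27A1 in each sample (linear axis from 0, 1 library per bar; grey parental RKO, red DIP2C-/-, blue DIP2C+/-). COL6A1 is at 17.4 to 27.4 CPM in every clone but H9-A4, COL13A1 is at most 1.04 CPM in all 7 clones, and COL27A1 shows no separation.

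Type V collagen, which sets the diameter of fibrils, was represented mainly by COL5A3, and here the clones differed from the parental cells in both directions. COL5A3 was at 14.8 and 12.7 CPM in parental RKO, at 33.2 (E3) and 3.89 (C10) CPM in DIP2C-/- clones, and at 49.8 (F6-A7), 9.66 (A9-A12), 4.04 (G1-A5), 8.37 (A6-C9) and 14.8 (H9-A4) CPM in DIP2C+/- clones. E3 and F6-A7 were above both parental samples by more than the parental spread, while C10 and G1-A5 were the lowest. The 2 DIP2C-/- clones thus lay on opposite sides of parental RKO. Over all clones the log2 fold change was 0.36 ± 0.88 (edgeR, adjusted p = 0.902), and 0.39 ± 0.88 without H9-A4 (adjusted p = 0.854). Without E3 and F6-A7, an alternative chosen after seeing the data, it was -0.83 ± 0.42 (edgeR, adjusted p = 0.57).

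The partner chains of type V collagen varied less. COL5A2, the alpha 2 chain, was at 5.12 and 3.76 CPM in parental RKO and between 1.92 (C10) and 5.97 (F6-A7) CPM in the clones, and COL5A1 was at 1.71 and 1.46 CPM and between 0.443 (G1-A5) and 2.25 (F6-A7) CPM. The ratio of COL5A3 to COL5A2 was 7.56 in E3 and 8.34 in F6-A7 and 1.58 to 3.9 in the other 7 samples. Among the chains of type XI collagen, the cartilage relative of type V, COL11A2 was at 2.75 and 2.09 CPM in parental RKO and 1.13 to 3.11 CPM in the clones, and COL11A1 at 1.49 and 0.731 CPM and 0.345 to 2.00 CPM. Groups overlapped in both genes.

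Type IX collagen chains assemble as a heterotrimer on the surface of cartilage fibrils, and the 3 chains did not all vary alike. COL9A1 was at 0.826 and 1.04 CPM in parental RKO, at 12.1 (E3) and 0.622 (C10) CPM in DIP2C-/- clones, and at 7.25 (F6-A7), 1.83 (A9-A12), 0.985 (G1-A5), 1.58 (A6-C9) and 2.15 (H9-A4) CPM in DIP2C+/- clones. E3 and F6-A7 again stood apart, 3 further clones were above both parental samples by smaller amounts, and C10 was the lowest of all 9. The log2 fold change was 1.89 ± 1.05 for all clones (edgeR, adjusted p = 0.46), 2.00 ± 1.06 without H9-A4 (edgeR, adjusted p = 0.294), and 2.75 ± 1.22 for DIP2C-/- clones (edgeR, adjusted p = 0.385), or 2.75 ± 1.20 without H9-A4 (edgeR, adjusted p = 0.246). The value for DIP2C-/- rests on E3, since it was -0.57 without that clone (edgeR, adjusted p = 0.942). The value for all clones was 1.20 without E3 (edgeR, adjusted p = 0.606) and 0.53 ± 0.48 without E3 and F6-A7 (edgeR, adjusted p = 0.734).

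COL9A3, the alpha 3 chain of type IX, showed no separation, at 6.17 and 4.07 CPM in parental RKO and 4.47 to 8.32 CPM in the clones, with the lowest value in a parental sample. The gene overlaps TCFL5 on the opposite strand, with the same limit on strand as above. COL9A2, the alpha 2 chain, was at 0.386 and 0.313 CPM in parental RKO, at 1.03 CPM in E3, 0.975 CPM in F6-A7 and 0.849 CPM in H9-A4, at 0.376 (A9-A12) and 0.306 (A6-C9) CPM, and in C10 and G1-A5 below the level of 3 counts. COL9A1 relative to COL9A3 was 0.134 and 0.256 in parental RKO, 2.47 in E3, 1.03 in F6-A7 and 0.103 to 0.481 in the remaining clones. The other FACIT members averaged under 2 CPM each.

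Type IV collagen forms the basement membrane, and its major chains are encoded by the head to head genes COL4A1 and COL4A2. COL4A1 was at 0.826 and 1.31 CPM in parental RKO, at 3.23 (E3) and 0.518 (C10) CPM in DIP2C-/- clones, and at 5.24 (F6-A7), 1.66 (A9-A12), 0.542 (G1-A5), 1.23 (A6-C9) and 1.47 (H9-A4) CPM in DIP2C+/- clones. E3 and F6-A7 were the highest and C10 and G1-A5 the lowest, the same order as for COL5A3 at both ends. The log2 fold change over all clones was 0.88 ± 0.86 (edgeR, adjusted p = 0.699), and 0.94 ± 0.87 without H9-A4 (edgeR, adjusted p = 0.599). It turned to -0.05 ± 0.53 without E3 and F6-A7, chosen after seeing the data (edgeR, adjusted p = 0.984).

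COL4A2 was at 1.60 and 1.93 CPM in parental RKO, at 1.16 (E3) and 0.466 (C10) CPM in DIP2C-/- clones, and at 1.58 (F6-A7), 0.644 (A9-A12), 0.345 (G1-A5), 0.715 (A6-C9) and 2.04 (H9-A4) CPM in DIP2C+/- clones. H9-A4 was the only clone above both parental samples, and the other 6 were below, F6-A7 only just. The ratio of COL4A1 to COL4A2 CPM was 0.517 and 0.676 in parental RKO and 0.722 in H9-A4, and 1.11 to 3.31 in the other 6 clones. This ratio was not tested. Annotated transcripts of the genes overlap at their starts, so reads there could be assigned to either gene. COL4A4 was at 1.32 and 1.46 CPM in parental RKO and 1.28 to 3.94 CPM in the clones, highest in E3, and COL4A3 at 0.661 and 0.574 CPM and 0.483 to 2.06 CPM, again highest in E3. COL4A5 and COL4A6, which share a start region on the X chromosome, ranged from 0.296 to 1.29 CPM and from 0.197 to 1.55 CPM over all samples.

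**Figure D4:**
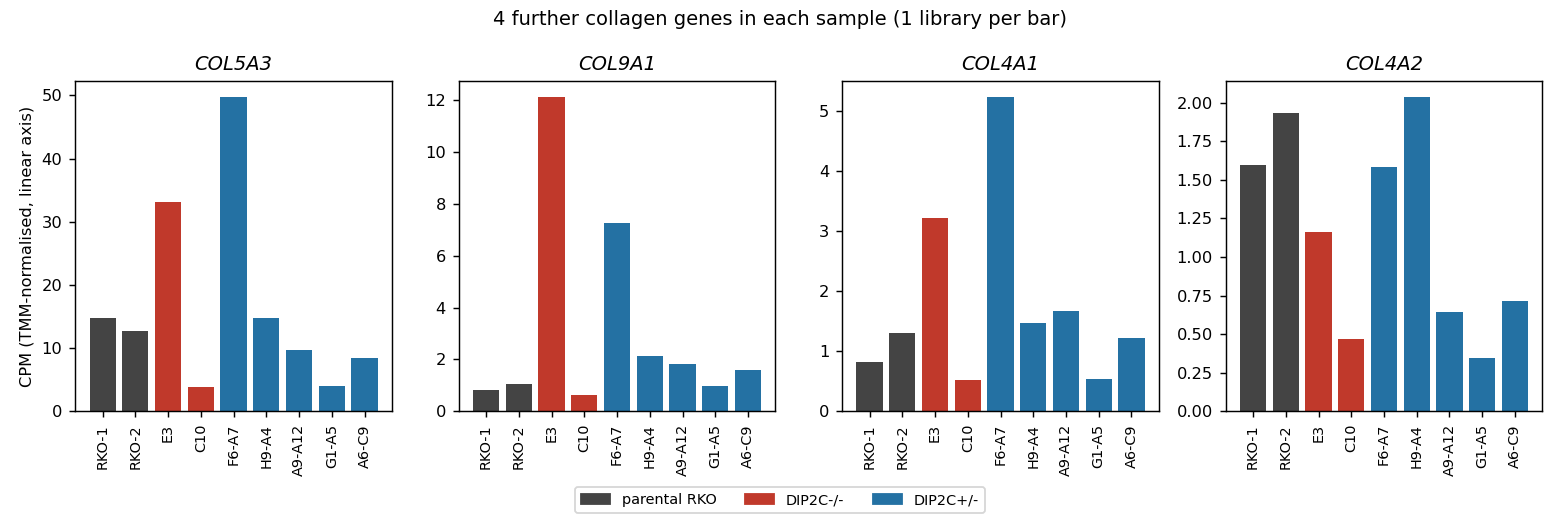
CPM of COL5A3, COL9A1, COL4A1 and COL4A2 in each sample (linear axis from 0, 1 library per bar; grey parental RKO, red DIP2C-/-, blue DIP2C+/-). COL5A3, COL9A1 and COL4A1 are highest in E3 and F6-A7, at 33.2 and 49.8, 12.1 and 7.25, and 3.23 and 5.24 CPM, while COL4A2 is not.

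COL7A1, the anchoring fibril collagen that ties basement membrane to stroma, was at 2.203 and 2.56 CPM in parental RKO and 1.23 to 3.23 CPM in the clones, without separation. COL28A1, a minor collagen with von Willebrand factor A domains, was at 3.03 and 2.51 CPM in parental RKO, 2.45 and 1.30 CPM in E3 and C10, and 0.887 to 2.07 CPM in DIP2C+/- clones. All 7 clones lay below both parental samples, E3 only by a small margin, and the log2 fold change of -0.72 ± 0.40 did not pass the test (edgeR, adjusted p = 0.462), nor did -0.72 ± 0.43 without H9-A4 (edgeR, adjusted p = 0.36). COL8A2, a network collagen of the corneal basement membrane named here after its values were seen, was at 0.661 and 1.10 CPM in parental RKO and 0.197 to 0.645 CPM in the clones. Its log2 fold change over all clones was -1.22 ± 0.48 (edgeR, adjusted p = 0.327), and -1.24 ± 0.54 without H9-A4 (edgeR, adjusted p = 0.191).

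Across the family, no member was called at an adjusted p under 0.05 by edgeR with all 9 samples in any contrast, out of 43 tested. The targeted gene DIP2C was not called in this fit in any contrast with parental RKO either, although its log2 fold change in DIP2C-/- was -1.71. Without H9-A4 it was called lower for DIP2C-/-, DIP2C+/- and all clones (edgeR, adjusted p = 0.00103, 0.0285 and 0.00216). The absence of a call with all 9 samples therefore does not show that a gene was unchanged. Over all 15532 genes tested, 0.00644% were called for DIP2C-/- against parental RKO, 0.0966% for DIP2C+/-, 0.18% for all knockout clones and 0% for DIP2C+/- against DIP2C-/-. At an unadjusted p under 0.05 stood 4 members for DIP2C-/- (COL6A1, COL9A1, COL13A1, COL18A1), 2 for DIP2C+/- (COL8A2, COL13A1), 3 for all clones (COL6A1, COL8A2, COL13A1) and 0 for DIP2C+/- against DIP2C-/-. Of all 15532 genes, 1970, 1796, 2079 and 865 stood there in these contrasts, so the member counts by themselves say little about the family. DESeq2 on the same samples called 1 member as lower, COL13A1, in each contrast with parental RKO, against 1.33%, 0.572% and 1.02% of all genes for DIP2C-/-, DIP2C+/- and all clones, and 0 members between the genotypes. In the whole family the median log2 fold change was 0.22 for DIP2C-/-, -0.13 for DIP2C+/- and 0.00 for all clones, against 0.02 in each over all genes tested.

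Without H9-A4, a choice made after seeing the data, edgeR called members as lower and none as higher, of 42 tested. Those lower were 1 in DIP2C-/- (COL6A1), 2 in DIP2C+/- (COL6A1, COL13A1) and 3 in all clones (COL6A1, COL13A1, COL18A1). The shares of all genes called lower in these contrasts were 2.44%, 3.58% and 4.47%, so 3 of 42 is near the background and the count by itself says little about the family. With only the 4 samples of DIP2C-/- and parental RKO in the fit, 3 members were called lower (COL6A1, COL13A1, COL18A1), against 6.82% of all genes. Between DIP2C+/- and DIP2C-/- the count without H9-A4 was 0, with 0 members at an unadjusted p under 0.05, and by DESeq2 without H9-A4 it was also 0. Of all 15390 genes tested in that edgeR fit, 1093 had an unadjusted p under 0.05.

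**Figure D5:**
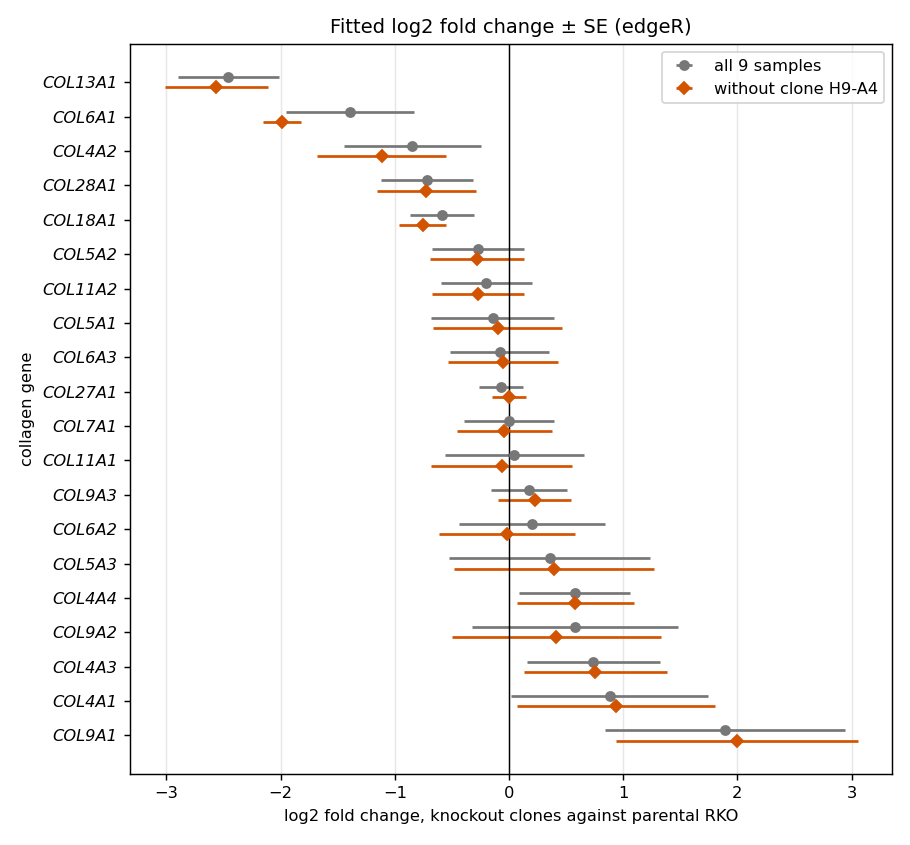
Fitted log2 fold change with its SE (edgeR) of all knockout clones against parental RKO for 20 collagen genes, with all 9 samples (grey circles) and without clone H9-A4 (orange diamonds). COL6A1 moves from -1.39 to -1.99 and its SE shrinks from 0.56 to 0.16, and COL13A1 is the lowest in both fits.

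By position alone, 3 members (COL8A2, COL13A1, COL28A1) were below both parental samples in all 7 clones, against 5.54% of all genes tested, and 0 were above both in all 7, against 5.41%. In the 6 clones other than H9-A4, 6 members (COL4A2, COL6A1, COL8A2, COL13A1, COL18A1, COL28A1) were below both parental samples, against 11.5% of all genes, and 0 were above both, against 12.4%. The 3 of 43 and 6 of 43 members are near these backgrounds.

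Each clone was also set singly against the mean of the parental pair, with a change of at least 4-fold counted and no test. The counts were 1 member for E3 (COL9A1 higher), 2 for C10 (COL13A1 and COL25A1 lower), 2 for F6-A7 (COL4A1 and COL9A1 higher), 0 for H9-A4, 2 for A9-A12 (COL6A1 and COL13A1 lower), 3 for G1-A5 (COL4A2, COL6A1 and COL13A1 lower) and 1 for A6-C9 (COL13A1 lower). The corresponding shares of all genes were 2.72%, 2.8%, 2.81%, 1.21%, 3.34%, 2.43% and 3.21%. Between the parental samples themselves 1 member (COL15A1) passed 4-fold, against 1.19% of all genes. COL25A1 in C10 was below the level of 3 counts. COL13A1 passed 4-fold in 4 clones (C10, A9-A12, G1-A5, A6-C9), and no other member did so in more than 2.

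The clones E3 and F6-A7 were the highest 2 of the 9 samples in 19 of the 43 members tested, against 6.12% of all genes. Among these were COL4A1, COL4A3, COL4A4, COL5A3, COL6A3, COL7A1, COL9A1 and COL9A2. E3 is DIP2C-/- and F6-A7 is DIP2C+/-, so this pattern crosses the genotypes. Most of these members had few reads. Under 2 CPM on average, 16 of 34 members showed it, against 21.4% of all genes at such levels. At 2 CPM or more, 3 of 9 members showed it (COL5A3, COL7A1, COL9A1), against 1.18% of all such genes. For COL7A1 the margin was small, at 3.10 and 3.23 CPM in E3 and F6-A7 against 2.72 CPM in H9-A4. Its count in E3 (48.1) was below those in C10 (50.4) and RKOparental-2 (49.0) before scaling to the library total. The pair was picked after members including COL5A3, COL9A1 and COL4A1 had been seen to be high in it, so these counts describe the pattern and are no independent support for it. Over the 34 tested members under 2 CPM, the median log2 difference from the parental mean was 0.86 in E3 and 0.61 in F6-A7, against 0.49 and 0.37 over the 3789 tested genes at such levels. G1-A5 lay at the other end, at -0.89 for the low members and -0.39 for all low genes, and in C10 these values were -0.37 and -0.10. E3 and F6-A7 had the smallest totals of deposited values, 14772593 and 16104666, and G1-A5 the largest, 21486483. These values are scaled in each sample, so the totals are not numbers of reads. If the commonest low value in a sample stands for 1 read, E3 and F6-A7 held 19675542 and 19110113 reads. That is more than in RKOparental-2 (17134472) and C10 (18907852), and G1-A5 held the most (24864011). The summed endothelial markers (5 genes) were also highest in E3 and F6-A7, at 5.29 and 5.61 CPM against 2.23 to 3.51 CPM in the other samples. Of these genes only VWF (1.61 and 2.68 CPM) and CDH5 (1.48 and 0.853 CPM) had E3 and F6-A7 as the highest 2 samples. PECAM1, KDR and TEK were at most 1.03 CPM in any sample. The summed fibroblast markers (7 genes) were at 2.66 to 7.54 CPM, highest in G1-A5 through LUM (4.98 CPM). Among them PDGFRA (1.61 and 1.16 CPM) and DCN (0.3225 and 0.487 CPM) also had E3 and F6-A7 as the highest 2 samples. LUM, PDGFRB, THY1, FAP and POSTN did not. The summed leukocyte markers (5 genes) were at 1.17 to 2.40 CPM. Each of these endothelial, fibroblast and leukocyte markers averaged under 2 CPM, where the median over all tested genes was also raised in E3 and F6-A7. The part of depth or of these marker genes in the pattern was not tested.

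Genes that fold, process and bind collagen were read from lists of 19, 14 and 11 genes. With all 9 samples edgeR called none of them in any contrast with parental RKO (18, 13 and 11 tested). Without H9-A4, 4 of 18 folding genes were called over all clones, 3 lower and 1 higher, where 4.47% of all genes tested were called lower and 4.48% higher. SERPINH1, the collagen chaperone HSP47, was at 241 and 250 CPM in parental RKO and 149 to 207 CPM in all 7 clones, with a log2 fold change of -0.49 ± 0.11 without H9-A4 (edgeR, adjusted p = 0.0218) and -0.48 ± 0.12 with all 9 samples (edgeR, adjusted p = 0.201). P4HA1, a catalytic chain of prolyl 4-hydroxylase, was at 37.3 and 36.0 CPM and 16.6 to 30.5 CPM in all 7 clones, a change of -0.80 ± 0.20 without H9-A4 (edgeR, adjusted p = 0.0311) and -0.83 ± 0.21 with all 9 (edgeR, adjusted p = 0.217). For both, no clone reached the parental samples, H9-A4 included.

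The other folding genes called were FKBP14 and P4HB. FKBP14, a prolyl isomerase of the endoplasmic reticulum, was at 26.9 and 28.9 CPM in parental RKO and 13.0 to 20.8 CPM in the clones (-0.71 ± 0.18, edgeR without H9-A4, adjusted p = 0.0286, and 0.253 with all 9 samples). P4HB, the protein disulfide isomerase that is the other subunit of prolyl 4-hydroxylase, was at 642 and 552 CPM in parental RKO and 627 (H9-A4) to 861 (A9-A12) CPM in the clones, overlapping with the parental pair only in H9-A4 (0.41 ± 0.12, edgeR without H9-A4, adjusted p = 0.0485, and 0.327 with all 9 samples). P4HB was the most abundant gene of that list, followed by PPIB (289 to 361 CPM over all samples) and GLT25D1 (178 to 286 CPM), which did not pass the test. In DIP2C-/- clones alone SERPINH1 and P4HA2 were called lower without H9-A4, of 18 tested, against 2.44% of all genes. P4HA2, another catalytic chain, was at 44.8 and 48.5 CPM in parental RKO and at 26.7 and 26.6 CPM in E3 and C10 (-0.81 ± 0.20, edgeR without H9-A4, adjusted p = 0.0428, and 0.308 with all 9 samples).

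Of 13 processing and crosslinking genes tested, 2 were called higher in all clones without H9-A4, against the 4.48% of all genes called higher in that fit, and none lower. LOX, the lysyl oxidase that starts collagen crosslinks, was at 0.606 and 0.679 CPM in parental RKO and 0.227 CPM in H9-A4, and at 1.99 to 4.25 CPM in the other 6 clones (a log2 fold change of 2.203 ± 0.46, edgeR without H9-A4, adjusted p = 0.0126). BMP1, the procollagen C-proteinase, was at 23.0 and 25.8 CPM in parental RKO, 13.7 CPM in H9-A4 and 35.3 to 44.1 CPM in the other clones (0.67 ± 0.15, edgeR without H9-A4, adjusted p = 0.0211). In both genes H9-A4 was below the parental samples and the other 6 clones above. LOXL3 (16.9 to 33.9 CPM) and PCOLCE (4.06 to 11.6 CPM) were, with BMP1, the most abundant of the list and did not pass the test. With all 9 samples the log2 fold changes were 1.98 for LOX and 0.53 for BMP1 (edgeR, adjusted p = 0.332 and 0.527).

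Of 11 collagen receptors 1 was called, higher, without H9-A4, again against 4.48% of all genes, and a count of 1 says nothing about receptors as a group. ITGB1, the beta 1 integrin chain common to the collagen-binding integrins, was at 593 and 484 CPM in parental RKO, 386 CPM in H9-A4 and 1013 to 1463 CPM in the other 6 clones (1.19 ± 0.17, edgeR without H9-A4, adjusted p = 0.00153). With all 9 samples its change was 1.03 ± 0.38 (edgeR, adjusted p = 0.321). The collagen-binding alpha chain ITGA2 (27.1 to 45.0 CPM) and the receptor kinase DDR1 (21.4 to 45.9 CPM) did not pass the test.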

How the data were processed

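Total RNA of 9 RKO cultures was sequenced by the authors on the Ion Proton system and aligned to hg19 (GRCh37) with TopHat2 (version 2.0.4). Gene levels came from Cufflinks (version 2.2.1 in the submitters' processing notes; the paper names another). What the authors deposited is an estimated count for each gene symbol. In each sample 97.95% to 98.48% of low values were whole multiples of 1 step (tolerance 0.02), which the authors do not explain. The design had assumed whole counts, so values were rounded.

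Groups came from the labels. No batch or date is given. Replicates of a group differed by more than sampling noise (chi-square per degree of freedom 18.1 to 118), so each counted once. All 9 samples were fitted with 1 coefficient per group in edgeR 4.0.16 (R 4.3.3) after filterByExpr and TMM. Contrasts were tested by the quasi-likelihood F test with Benjamini-Hochberg adjustment over all genes, called under 0.05. The average of all clones weighted each clone equally. SE is the size of the log2 fold change over the root of F. DESeq2 1.42.0 was an alternative. For single clones log2 CPM was computed with 2 as prior count. On simulated counts at the spread of all 9 samples (0.2975), edgeR recovered 197 to 200 of 200 genes changed by 3 on the log2 scale in the 3 contrasts with parental RKO. False calls numbered 5 to 8. DESeq2 recovered 194 to 200 of the 200 changed genes on the same counts, and its false calls numbered 15 to 26. Only genes above a minimum mean count were changed, all clones shifted alike, and every gene had the same spread. The change also exceeded the fitted collagen changes with all 9 samples, so the power for these members is not known from it.

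Genes were named by a rule: the 12 members with the highest mean CPM, those called with all samples or without H9-A4, those past 4-fold in at least 3 clones, and their partner chains. Other members that are on and given with values, COL8A2 and COL1A1 among them, lie outside this rule and were added with their values known. Members and lists were chosen with earlier results of these data known. Gene positions are from GENCODE for GRCh37 and promoter sequences from RefSeq on GRCh38.p14. The labels give 7 clones, more than the paper describes. Floors of 3 counts cover counting error only.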

Additional observations from a re-analysis of the deposited data

Results flagged for a closer look

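Among the 5 DIP2C+/- clones, 4 of 20 collagen genes examined had 1 sample far from the others, by a gap to its nearest neighbour of more than 0.71 of the group's range. COL6A1 was at 107 CPM in H9-A4, with a gap of 0.915 of the range, and this was the only one of the 4 in which H9-A4 was the distant sample. In F6-A7, COL5A3 was at 49.8 CPM (gap 0.765), COL9A1 at 7.25 CPM (gap 0.814) and COL4A1 at 5.24 CPM (gap 0.761). For normally distributed values chance gives such a gap in about 1 in 20 groups. The CPM values were not checked for this, and some of the 20 genes were named for their values. The 4 of 20 can therefore not be set against that rate. The DIP2C-/- and parental groups, with 2 samples each, are too small for this comparison. In the 3 genes high in F6-A7 the DIP2C-/- clone E3 was high as well. What sets these clones apart was not tested.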

How the results depend on the processing

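The number of members called depended on the samples and the tool. For DIP2C-/-, DIP2C+/- and all clones against parental RKO it was 0, 0 and 0 with all 9 samples in edgeR, 1, 1 and 1 with DESeq2, and 3, 3 and 3 with DESeq2 without H9-A4 (chosen after seeing the data). Leaving out 1 sample each in turn gave 0 to 1, 0 to 2 and 0 to 3, and the highest counts came without H9-A4. With only DIP2C-/- and parental samples it was 3. Without a filter on low counts it was 1 for all clones. DESeq2 size factors, library size alone, division by the step and a minimum of 10 counts in every sample left these counts at 0, as did leaving out E3 and F6-A7 (chosen after seeing the data). DIP2C+/- against DIP2C-/- stayed at 0 throughout. The share of all genes called is not given here for DESeq2 without H9-A4 or for the fit without a filter. Their member counts therefore say nothing about the family as a whole. Counting as on only members with 10 counts in every sample gave 18 in place of 43, and members past 4-fold in any single clone fell from 6 to 3 under that minimum, since fewer genes are tested.

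Of 1477 gene values compared over 18 alternatives, 88 changed sign, 58 on leaving out 1 sample, 25 without E3 and F6-A7 and 5 with DESeq2 without H9-A4. Those printed in the report were COL9A1 in DIP2C-/- (-0.58 without E3 and F6-A7, -0.57 without E3, up to 3.65), COL5A3 in all clones (-0.83 without E3 and F6-A7, -0.24 without F6-A7, -0.03 without E3, up to 0.53), COL4A1 in all clones (-0.047 without E3 and F6-A7, up to 1.24), COL27A1 in all clones (0.005 without E3 and F6-A7, from -0.13) and COL6A1 in DIP2C+/- against DIP2C-/- (-0.34 without H9-A4, -0.32 with DESeq2 without H9-A4, up to 0.70 without A9-A12). COL13A1 in all clones stayed between -2.70 and -2.28, with adjusted p from 6.5e-06 to 0.575. COL6A1 in all clones stayed between -1.998 and -1.19, with adjusted p from 1.77e-21 to 0.815. No paired analysis was possible because the replicate numbers were given in accession order and tie no clone to a parental sample. Depth limits 35 members, which averaged under 2 CPM.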
